A study of Mus musculus with 6 samples.

Results

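The transcripts described here encode the enzymes that join glutathione, glucuronic acid or sulfate to other molecules in the mouse kidney. They are the 63 rows, of 24346 in the expression table, whose symbols begin with Gst followed by a, k, m, o, p, t or z, or with Mgst, Ugt1 to Ugt3, or Sult. Of these, 24 are glutathione transferases, 20 are UDP-glucuronosyltransferases and 19 are sulfotransferases. RNA came from kidneys of C57BL/6 mice after one of 2 operations, with 3 libraries per group: IVCC, which the labels do not spell out, and Sham. The series concerns renal congestion and acute kidney injury, and the contrast asks how kidney expression differs after IVCC. Age, sex, the time after surgery and any further injury are not given in the labels used here, nor whether each library came from its own mouse, so the p-values reflect only how these libraries vary, which may be technical. Values are FPKM, read fragments divided by transcript length and by library size, so levels of different genes are compared per length of transcript.

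Conjugation makes a reactive or fat-soluble molecule more soluble in water, so that it can be exported and passed into urine or bile. Glutathione transferases attach the tripeptide glutathione to electrophiles. The alpha (Gsta), mu (Gstm), pi (Gstp), theta (Gstt), zeta (Gstz) and omega (Gsto) classes are cytosolic, kappa (Gstk) sits in mitochondria and peroxisomes, and the microsomal enzymes (Mgst) are membrane proteins. UDP-glucuronosyltransferases lie in the endoplasmic reticulum and take glucuronic acid from UDP-glucuronic acid, except that the Ugt3 enzymes use other UDP sugars. The Ugt3 rows are counted with the glucuronosyltransferases throughout, by their symbols only. Cytosolic sulfotransferases take sulfate from the activated donor PAPS. In the kidney the proximal tubule holds much of this activity, and it also cleaves glutathione conjugates into mercapturates.

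The Ugt1 locus needs its sequence shown first, because it decides how its rows can be read. Each Ugt1 transcript joins a first exon of its own to exons that the whole locus shares on the plus strand of chromosome 1. GENCODE M21 annotates 9 Ugt1a genes on GRCm38, the assembly that mm10 names. The first of the shared exons runs from 88215044 to 88215175. The lines below give the 30 bases that end the gene's own exon in lower case and the 30 bases that begin the shared exon in capitals, for 5 of the 8 Ugt1 rows in the table.
Ugt1a7c: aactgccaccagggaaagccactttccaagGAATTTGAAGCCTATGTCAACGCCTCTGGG
Ugt1a6b: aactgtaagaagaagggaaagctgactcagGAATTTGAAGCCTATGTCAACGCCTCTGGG
Ugt1a6a: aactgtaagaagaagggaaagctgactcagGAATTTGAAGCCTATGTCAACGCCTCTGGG
Ugt1a10: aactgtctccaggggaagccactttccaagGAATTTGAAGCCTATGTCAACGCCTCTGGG
Ugt1a1: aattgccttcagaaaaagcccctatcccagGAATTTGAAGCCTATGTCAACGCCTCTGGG
The capitals are the same in every line, and the lower-case ends of Ugt1a6a and Ugt1a6b are the same 30 bases. Against Ugt1a7c, 13 of the 30 lower-case bases of Ugt1a6b are identical, 27 of those of Ugt1a10 and 22 of those of Ugt1a1. A read of 75 bases, the length used here, often cannot tell these genes apart. Of all 75-base windows in the protein-coding transcripts of a gene, 74.8% of those of Ugt1a6b, 95.7% of those of Ugt1a6a and 53.3% of those of Ugt1a7c occur in the transcripts of another gene. One annotated Ugt1a7c transcript uses the Ugt1a6a exon, which adds to the last pair of shares.

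Outside Ugt1 the members were mostly distinguishable. Of the 35 members whose 6 libraries averaged 1 FPKM or more, 15 had no 75-base window in common with another gene and 11, with the Ugt1 rows among them, had over 5% in common. Gstp1 and Gstp2 shared most, with 44.5% and 45.4% of their windows found elsewhere. Gsta2 shared 33.5%, Ugt2b5 30.4% and Ugt2b38 28.0%, the last pair chiefly with each other. Gstt3 shared 19.1%, Gstm1 12.3% and Ugt2b37 6.4%. How the authors assigned such reads is not given in the sources used here, so the values of these rows are uncertain.

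Defining kidney markers were high in every library. Steps between the lowest FPKM put the IVCC libraries at a nominal 8030000 to 8990000 reads and the Sham libraries at 6040000 to 7230000, but only 81.2% to 86.4% of low values were whole reads within a tolerance of 0.1, so true depth is unknown. Slc34a1 of the proximal tubule lay at 2131 to 2576 FPKM and Umod of the thick ascending limb at 842 to 1702 FPKM, and both are defining genes of the nephron. Of 5 adrenal cortex markers Cyp11a1 and Cyp11b1 were listed at 0 throughout, Star lay at 0.627 to 1.2 FPKM, and the sum of the 5 was 0.69 to 1.26 FPKM. Of 5 fat markers Adipoq, Plin1 and Lep were listed at 0 throughout, but Fabp4, which endothelium also expresses, lay at 74.7 to 140.3 FPKM. The 6 liver markers summed to 180.2 to 341 FPKM in IVCC and 229 to 472 FPKM in Sham, most of it Ttr at 153 to 410.2 FPKM, while Alb lay at 3.31 to 9.44 FPKM. Sham replicate 3 stood apart from the other libraries: the urothelial marker Upk2 was listed above 0 there alone, at 2.19 FPKM, and 5 urothelial markers summed to 7.96 FPKM, against 0.637 to 1.29 FPKM in IVCC. Counts over the enzyme classes are therefore given with and without it.

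The kidney held high levels of a few members and almost none of many others. The highest was Ugt3a2, at a mean of 957 FPKM over the 6 libraries, followed by Ugt2b38 at 666, Gstm1 at 468 and Sult1d1 at 386 FPKM. The 35 members at or above a mean of 1 FPKM were tested: 19 of 24 glutathione transferases, 10 of 20 glucuronosyltransferases and 6 of 19 sulfotransferases. The other 28 had means of at most 0.87 FPKM, and 11 of them were listed at 0 in all 6 libraries. Those 11 were Ugt1a5, Ugt2b1 and 9 sulfotransferases: Sult1c1, Sult3a1 and every Sult2a row except Sult2a3. A value listed at 0 can be a failed estimate.

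**Figure D1:**
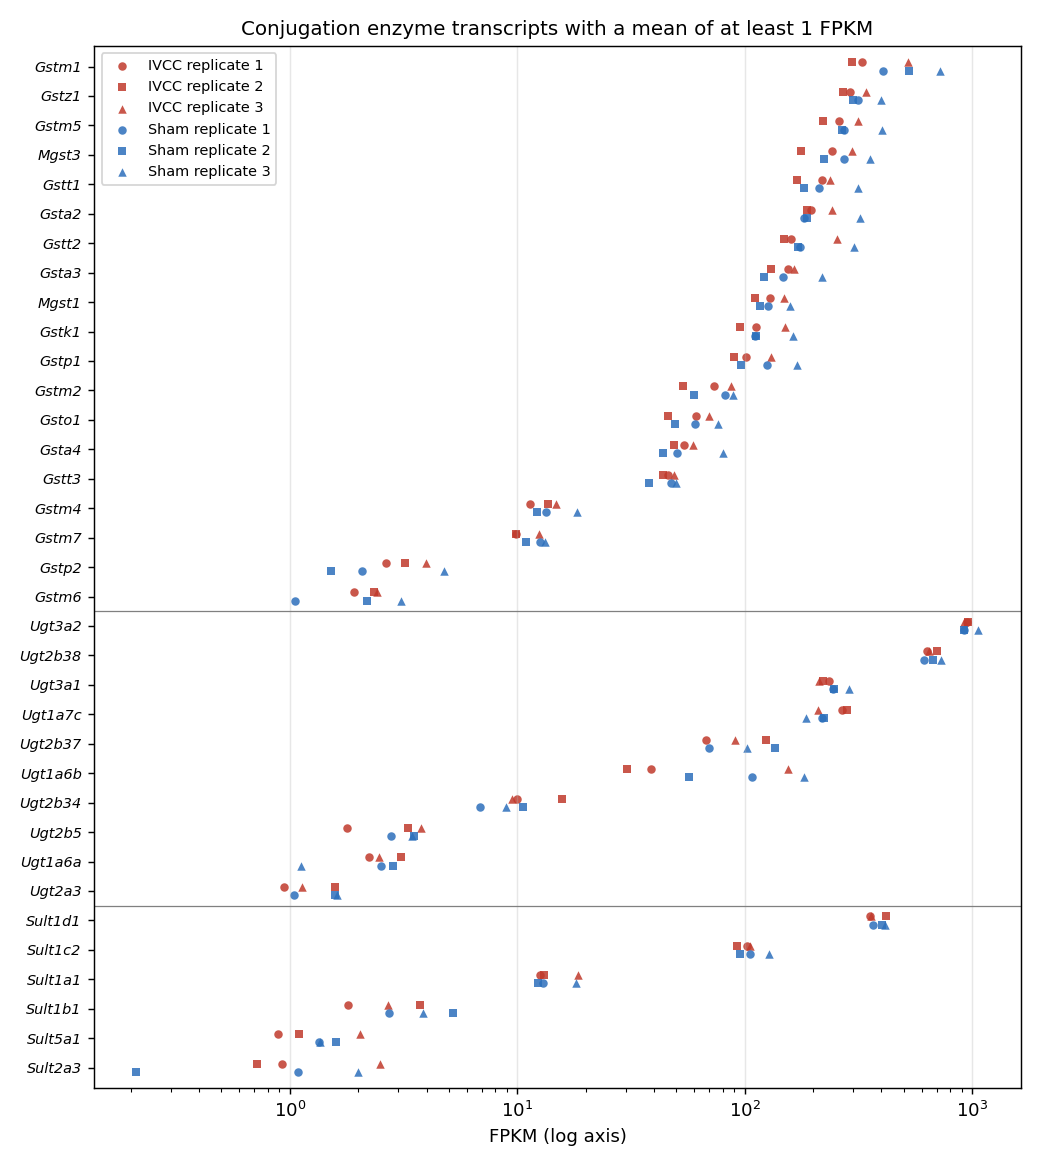
FPKM of the 35 tested members on a log axis, 1 point per library, with IVCC in red, Sham in blue and the replicate number as the marker shape; grey lines part the glutathione transferases, glucuronosyltransferases and sulfotransferases. Levels span from Sult2a3, at 0.212 FPKM in Sham replicate 2, to Ugt3a2, at 1067 FPKM in Sham replicate 3.

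No member passed the adjusted threshold between IVCC and Sham. On log2(FPKM + 1), limma called 0 of the 35 members at an adjusted p under 0.05, and 0% of the 12090 genes tested; the smallest adjusted p of a member was 0.924. At an unadjusted p under 0.05 there were 0 members, against 3.56% of all genes tested (431). The 3 IVCC values lay wholly apart from the 3 Sham values for 1 member, Ugt3a1, or 2.86% of members, against 8.31% of all genes (4.09% with IVCC higher and 4.22% with IVCC lower). The fitted value was lower in IVCC for 27 of 35 members, 77.1% against 51.6% of all genes, with a median log2 fold change of -0.11 against -0.01 over all genes. That lean was not stable: the number lower was 17 of 35 after quantile normalization, after a correction of each library for transcript length and GC content, and without Sham replicate 3. Scaling each library to the same sum (TPM) moved the median of all genes by 0.15 to the higher side, and 11 of 35 members were then lower. With 3 libraries a group, the 95% intervals stayed wide, so a p above the threshold does not show equal levels. In bulk tissue, fewer cells of a type and less RNA per cell cannot be told apart.

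**Figure D2:**
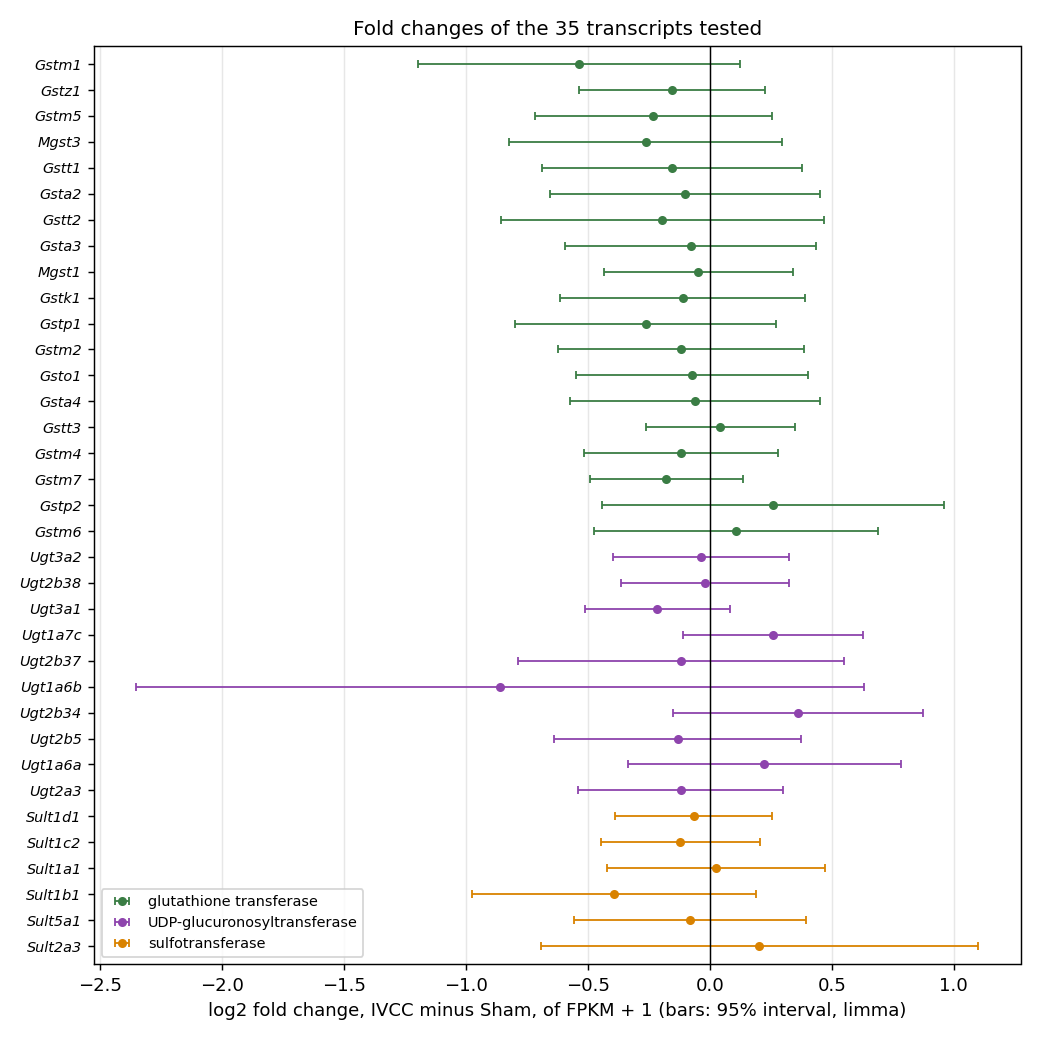
Log2 fold change (IVCC minus Sham, of FPKM + 1) of each tested member with its 95% interval from limma, coloured by enzyme class. Every interval includes 0, and the widest is that of Ugt1a6b, from -2.35 to 0.63.

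Of the alpha class, Gsta2, Gsta3 and Gsta4 were well expressed. Gsta2 measured 196, 189 and 243 FPKM in IVCC and 183, 188 and 323 FPKM in Sham in replicates 1 to 3. Gsta3 measured 155, 131 and 165 FPKM in IVCC and 147, 122 and 219 FPKM in Sham. Gsta4, whose enzyme clears the lipid peroxidation product 4-hydroxynonenal, measured 54.2, 48.9 and 59.2 FPKM in IVCC and 50.5, 43.9 and 80.6 FPKM in Sham. In each of these genes Sham replicate 3 was the highest of the 6 values and IVCC replicate 3 came next, with Sham replicates 1 and 2 below it, so the groups overlapped. The log2 fold changes were -0.10, -0.08 and -0.06, with standard errors of 0.24, 0.22 and 0.22. Gsta1, the near copy of Gsta2, reached at most 0.651 FPKM in any library.

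In the mu class, Gstm1 had the largest difference between group means of any glutathione transferase (chromosome 3, 108012255 to 108017973, minus strand, GRCm38). It measured 327, 297 and 525 FPKM in IVCC and 405, 531 and 724 FPKM in Sham. IVCC replicate 3 lay above Sham replicate 1 and just under Sham replicate 2, so the groups overlapped. The means were 383 ± 124 against 553 ± 161 FPKM (SD, n = 3 each). The log2 fold change of -0.53 had a standard error of 0.28 and a 95% interval of -1.19 to 0.13 (limma adjusted p = 0.924). The fold change was -0.36 after the length and GC correction, -0.32 without Sham replicate 3 and -0.78 without IVCC replicate 3. Its unadjusted p was the smallest of all members, at 0.0982.

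The other mu genes had smaller differences. Gstm5 measured 260.0, 222 and 315 FPKM in IVCC and 273, 269 and 403 FPKM in Sham. Gstm2 measured 73.6, 53.4 and 87.3 FPKM in IVCC and 82.3, 60.2 and 89.0 FPKM in Sham. Their log2 fold changes were -0.23 and -0.12, within the spread of their libraries. Gstm4, Gstm6 and Gstm7 had means between 2.17 and 14.0 FPKM and log2 fold changes from -0.18 to 0.11, and Gstm3 stayed below the filter. The summed FPKM of the 7 mu rows averaged 747 ± 187 against 975 ± 245 FPKM, and these sums ran from 599 in IVCC replicate 2 to 1252 in Sham replicate 3.

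In the pi and theta classes replicate 3 was again the highest of each group. Gstp1, the pi class enzyme, measured 102, 89.5 and 131 FPKM in IVCC and 126, 96.9 and 169.9 FPKM in Sham. Its near copy Gstp2 measured 2.66, 3.22 and 3.98 FPKM in IVCC and 2.08, 1.52 and 4.76 FPKM in Sham, and the fold changes of the pair pointed apart, at -0.26 and 0.26. Because Gstp1 and Gstp2 share many read-length windows, their sum is less dependent on how reads were split: it averaged 111 ± 21.9 against 134 ± 38.4 FPKM. Gstt1 measured 219, 169.5 and 237 FPKM in IVCC and 212, 183 and 315 FPKM in Sham. Gstt2 measured 160.2, 149 and 256 FPKM in IVCC and 176, 172 and 303 FPKM in Sham. Gstt3 measured 46.0, 43.8 and 49.0 FPKM in IVCC and 47.3, 38.1 and 50.0 FPKM in Sham, a narrower range than its neighbours. The theta fold changes lay between -0.19 and 0.04, and Gstt4 was listed at 0 in 5 of 6 libraries.

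The zeta, omega and kappa classes had the same pattern. Gstz1, the maleylacetoacetate isomerase of tyrosine breakdown, measured 292, 271 and 343 FPKM in IVCC and 314, 301 and 396 FPKM in Sham. Gsto1, an omega enzyme that can reduce dehydroascorbate, measured 61.4, 46.2 and 69.4 FPKM in IVCC and 60.8, 49.4 and 76.3 FPKM in Sham. Gstk1, the kappa enzyme, measured 112, 95.7 and 150.0 FPKM in IVCC and 112, 112 and 163 FPKM in Sham. In each the groups overlapped, with log2 fold changes of -0.16, -0.07 and -0.11. Of the microsomal enzymes, Mgst1, which also reduces lipid peroxides, measured 129, 111 and 149.5 FPKM in IVCC and 126, 117 and 159 FPKM in Sham. Mgst3 measured 242, 176 and 298 FPKM in IVCC and 274, 225 and 357 FPKM in Sham. Their log2 fold changes were -0.05 and -0.26, with standard errors of 0.17 and 0.24. Mgst2 and Gsto2 lay below the filter.

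What the glutathione transferases shared was their pattern over libraries. For all 19 tested members replicate 3 was the highest of its own group in IVCC and in Sham. The same held for 32.6% of all genes tested and for 1 of 10 glucuronosyltransferases. The 19 were also short: their transcripts had a median length of 1058.5 bp, against 2547.5 bp for all tested genes and 2260 bp for the tested glucuronosyltransferases. Of the 2916 shortest genes tested (up to 1604 bp), 63.4% were highest in replicate 3 of both groups. Relative to each gene's mean, the median glutathione transferase lay at -0.09, -0.24 and 0.17 (log2) in IVCC replicates 1 to 3 and at -0.05, -0.19 and 0.48 in Sham. The median of those short genes lay at -0.11, -0.25 and 0.12 in IVCC and at 0.02, -0.11 and 0.33 in Sham. After correction for length and GC content the median glutathione transferase lay between -0.12, in Sham replicate 2, and 0.19, in Sham replicate 3.

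The direction of the class was not the same in every setting. Of all genes tested, 51.6% had a lower fitted value in IVCC. Of the 19, 16 had a lower fitted value in IVCC (median log2 fold change -0.12), but 12 were higher and 7 lower after the length and GC correction (median 0.04), and likewise without Sham replicate 3 (median 0.07). Without IVCC replicate 2 the split was 9 higher and 10 lower, after quantile normalization 9 and 10, and with TPM scaling 13 and 6. With TPM scaling the class median was 0.06 against 0.15 over all genes, so the class still lay below all genes. Without IVCC replicate 3 the median was -0.25, and without Sham replicate 2 it was -0.24. Without both libraries numbered 3, 6 were higher and 13 lower (median -0.04). Without IVCC replicate 1, 16 were lower (median -0.10), and without Sham replicate 1, 17 were lower (median -0.17). The urothelial markers were highest in Sham replicate 3 as well, and the part of urothelium in these values was not tested.

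**Figure D3:**
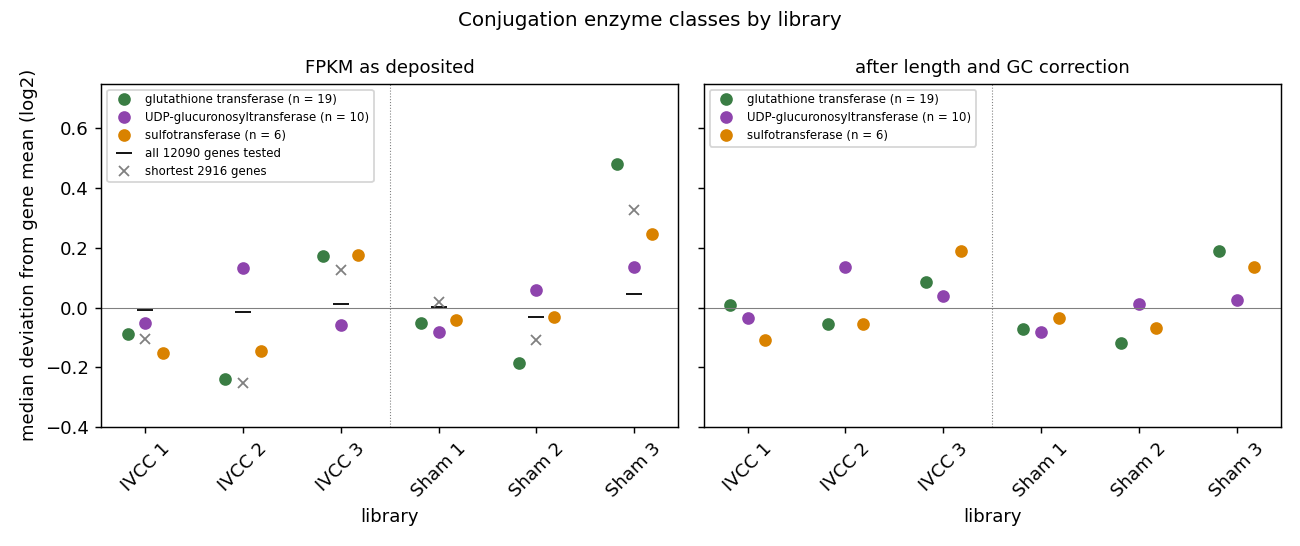
Median log2 deviation from each gene's own mean over the 6 libraries, per library and enzyme class, for FPKM as deposited (left, with all tested genes as dashes and the 2916 shortest as crosses) and after the length and GC correction (right). The glutathione transferases lie at 0.48 in Sham replicate 3 as deposited and at 0.19 after the correction.

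Among the glucuronosyltransferases, the main Ugt1 rows had opposite orders of libraries. Ugt1a6b, of the subfamily that conjugates small phenols, measured 39.0, 30.3 and 156 FPKM in IVCC and 108, 57.2 and 183 FPKM in Sham. Ugt1a7c measured 269, 281 and 209 FPKM in IVCC and 219, 225 and 187 FPKM in Sham. The order of the 6 libraries by Ugt1a7c was the exact reverse of their order by Ugt1a6b: IVCC replicate 2 was lowest in Ugt1a6b and highest in Ugt1a7c, and Sham replicate 3 the opposite. Ugt1a6b held 9.5% of the Ugt1 total in IVCC replicate 2 and 49.2% in Sham replicate 3. From lowest to highest library Ugt1a6b varied 6.05-fold and Ugt1a7c 1.50-fold, whereas the sum of the 8 Ugt1 rows varied 1.30-fold. That sum was 313, 317 and 369 FPKM in IVCC and 331, 286 and 373 FPKM in Sham, which overlapped fully.

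Tested row by row, Ugt1a6b gave the largest and least precise log2 fold change of any member, -0.86 (standard error 0.64, limma adjusted p = 0.924), and Ugt1a7c gave 0.26 (standard error 0.16). With the Ugt1 rows summed before the fit, the log2 fold change was 0.02 with a standard error of 0.15 (limma adjusted p = 0.987), from sums averaging 333 ± 31.5 against 330.2 ± 43.4 FPKM (SD, n = 3 each). The Ugt1a6b and Ugt1a7c rows together made up 98.2% to 99.3% of the sum in every library. Their exon junctions printed above end in the same 30 capitals, and the median annotated transcript is 2276 bp for Ugt1a6b and 3266.5 bp for Ugt1a7c. Ugt1a6a measured 2.23, 3.09 and 2.47 FPKM in IVCC and 2.53, 2.84 and 1.12 FPKM in Sham, and Ugt1a1, the enzyme that conjugates bilirubin, reached at most 0.928 FPKM.

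**Figure D4:**
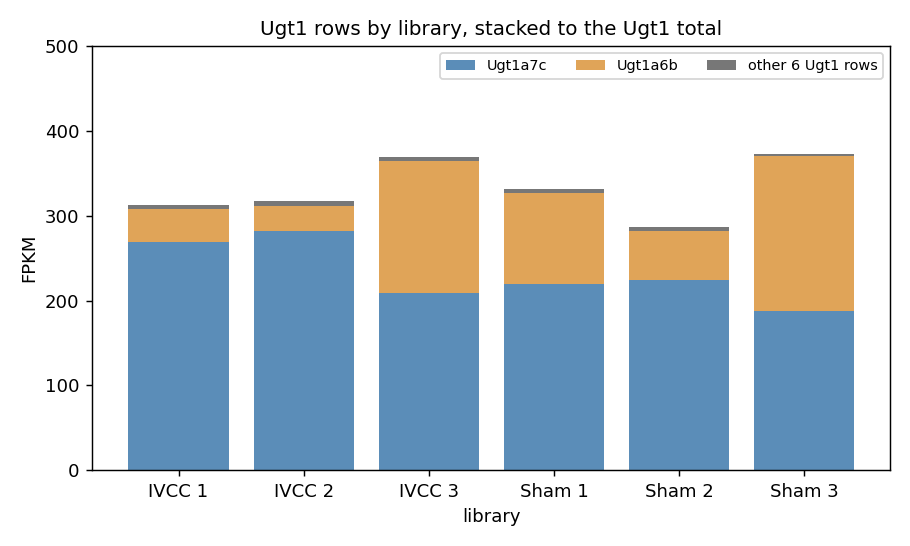
FPKM of the Ugt1 rows by library, stacked, with Ugt1a7c in blue, Ugt1a6b in orange and the other 6 rows in grey. The share of Ugt1a6b runs from 9.5% in IVCC replicate 2 to 49.2% in Sham replicate 3, while the stacked totals lie between 286 and 373 FPKM.

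The Ugt2 genes, whose enzymes conjugate steroids, bile acids and drugs, were led by Ugt2b38 (chromosome 5, 87409942 to 87424203, minus strand). Ugt2b38 measured 635, 699 and 650.0 FPKM in IVCC and 613, 674 and 728 FPKM in Sham, nearly level over the libraries, and its log2 fold change was -0.02 with a 95% interval of -0.36 to 0.32. Ugt2b37 measured 67.9, 124 and 90.5 FPKM in IVCC and 69.8, 136 and 102 FPKM in Sham. Here replicate 2 was highest and replicate 1 lowest in each group, an order that differs from that of the glutathione transferases. Ugt2b34 measured 9.98, 15.8 and 9.49 FPKM in IVCC and 6.89, 10.6 and 8.95 FPKM in Sham, and its log2 fold change of 0.36 was the highest of any member, with a standard error of 0.22 and overlapping groups. Ugt2b5 and Ugt2a3 had means of 3.11 and 1.32 FPKM and log2 fold changes of -0.13 and -0.12. The other 5 Ugt2 rows lay below the filter.

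Both Ugt3 genes were abundant. Ugt3a2 (chromosome 15, 9335550 to 9370955, plus strand) measured 948, 959.7 and 922 FPKM in IVCC and 919, 924 and 1067 FPKM in Sham, and its log2 fold change was -0.04 with a 95% interval of -0.40 to 0.32. Its neighbour Ugt3a1 (chromosome 15, 9276888 to 9315032, plus strand) measured 236, 222 and 212 FPKM in IVCC and 245, 247 and 287 FPKM in Sham. All 3 IVCC values of Ugt3a1 lay below all 3 Sham values, with means of 223 ± 11.9 against 259.9 ± 23.5 FPKM (SD, n = 3 each). The log2 fold change was -0.21 with a standard error of 0.13 (limma adjusted p = 0.924), and -0.14 without Sham replicate 3. It was -0.07 after quantile normalization and -0.04 with TPM scaling, where the median of all genes was 0.15. An exact permutation test of 3 against 3 cannot give a p below 0.1.

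The 250 bases before the RefSeq start of Ugt3a1, the only member whose groups did not overlap, are shown with a half-site of HNF1, a transcription factor of proximal tubule and liver, in capitals (chr15:9279579-9279828, plus strand, GRCm38.p6). In GENCODE M21 this window lies in an intron of a non-coding Ugt3a1 transcript and upstream of the coding one. Beside it stands the same window of Gsta3, one of the glutathione transferases that ran together over libraries, with the core of the antioxidant response element in capitals (chr1:21240335-21240584, plus strand).
Ugt3a1: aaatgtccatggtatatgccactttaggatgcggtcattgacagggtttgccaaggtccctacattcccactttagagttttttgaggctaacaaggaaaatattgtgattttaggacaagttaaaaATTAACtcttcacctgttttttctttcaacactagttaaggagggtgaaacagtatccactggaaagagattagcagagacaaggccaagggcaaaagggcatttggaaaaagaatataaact
Gsta3: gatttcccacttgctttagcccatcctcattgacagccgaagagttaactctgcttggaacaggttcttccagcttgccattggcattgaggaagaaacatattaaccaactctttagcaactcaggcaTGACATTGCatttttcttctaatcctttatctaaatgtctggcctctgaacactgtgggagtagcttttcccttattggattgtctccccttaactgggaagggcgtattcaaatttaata
RefSeq promoters were at hand for 31 of the 35 tested members. Searched on both strands, the HNF1 half-site GTTAAT was present in 22.6% of those members (7 of 31) and in 7.5% of all 27025 genes with a promoter in the table. By class it was in 1 of 17 glutathione transferases (5.9%) and 3 of 8 glucuronosyltransferases (37.5%), and in Sult1a1, Sult1d1 and Sult2a3. The antioxidant core TGACNNNGC was present in 12.9% of the members (4 of 31: Gsta3, Gstm5, Gstm7 and Mgst1) and in 11.5% of all genes. Those were 4 of 17 glutathione transferases (23.5%), against 0 of 8 glucuronosyltransferases. The xenobiotic response core GCGTG, which the aryl hydrocarbon receptor binds, was present in 22.6% of the members and in 30.9% of all genes, and in Gstm5 it overlaps the antioxidant core; the Gsta3 window also holds an HNF1 half-site, apart from its antioxidant core. A match describes letters in this window and says nothing of binding.

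The sulfotransferases were led by Sult1d1 (chromosome 5, 87554645 to 87569027, minus strand), whose enzyme sulfates dopamine and other catechols. Sult1d1 measured 357, 418 and 358 FPKM in IVCC and 366, 404 and 415 FPKM in Sham, and Sult1c2 measured 102, 92.8 and 106 FPKM in IVCC and 106, 95.3 and 127 FPKM in Sham. Sult1a1, a phenol sulfotransferase, measured 12.7, 13.2 and 18.5 FPKM in IVCC and 13.1, 12.3 and 18.1 FPKM in Sham. The groups overlapped in each, with log2 fold changes of -0.07, -0.12 and 0.02. Sult1b1, which sulfates thyroid hormones, was low, with means of 2.76 ± 0.97 against 3.94 ± 1.26 FPKM and a log2 fold change of -0.39. Sult5a1 and Sult2a3 had means of 1.39 and 1.24 FPKM. The estrogen sulfotransferase gene Sult1e1 was listed above 0 in 1 library only, IVCC replicate 2, at 0.111 FPKM. Summed over the 19 rows, sulfotransferase FPKM averaged 498 ± 28.1 against 526 ± 38.8 FPKM. The 20 Ugt rows summed to 2271 ± 66.4 against 2348 ± 199 FPKM, of which the Ugt3 rows gave 1167 ± 28.2 against 1230 ± 108 FPKM. Fitted values were lower in IVCC for 4 of 6 sulfotransferases and 7 of 10 glucuronosyltransferases, against 51.6% of all genes. Without Sham replicate 3 the numbers lower were 4 of 6 and 6 of 10, and with TPM scaling 1 of 6 and 4 of 10. The medians of these classes with TPM scaling were 0.08 and 0.10, below the 0.15 of all genes.

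Genes that supply, process and export conjugates were taken from the same fit, 50 of them tested. limma called 0 of the 50 at an adjusted p under 0.05 (smallest 0.924), and 7 had an unadjusted p under 0.05: Slc26a1 and Abcc4 with higher fitted values in IVCC, and Gclm, Cth, Acy1, Ugdh and Slc35d2 with lower ones. That is 2 higher and 5 lower of 50, against 1.7% and 1.87% of all genes. Groups did not overlap for 7 of 50, against 8.31% of all genes. The fitted value was lower in IVCC for 31 of 50, against 51.6% of all genes. With TPM scaling the median log2 fold change of all genes was 0.15, so counts under that scaling are not centred on 0.

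In glutathione synthesis and recycling, all 9 tested genes had a lower fitted value in IVCC (median log2 fold change -0.26), and 3 of them did not overlap between the groups. Over all genes, 51.6% had a lower fitted value and 4.22% did not overlap with IVCC lower. The number lower was 6 of 9 with TPM scaling, 7 after quantile normalization and 8 or 9 in every other setting, 9 without Sham replicate 3. Gclm, the modifier subunit of the rate-limiting ligase, measured 118, 114 and 119 FPKM in IVCC and 133, 151 and 137 FPKM in Sham. Cth, which makes cysteine from cystathionine, measured 124, 123 and 135 FPKM in IVCC and 144, 155 and 169 FPKM in Sham. Cbs, the step before it, measured 125, 119.6 and 139.9 FPKM in IVCC and 145, 147 and 205 FPKM in Sham. In Gclm, Cth and Cbs every IVCC library lay below every Sham library, with log2 fold changes of -0.26, -0.29 and -0.35 with standard errors of 0.11, 0.12 and 0.17. Gss, glutathione synthetase, averaged 220.4 ± 47.7 against 281 ± 57.7 FPKM with overlapping groups. Gsr and Oplah were nearly level, with log2 fold changes of -0.01 each. Slc7a11 and Chac1, also on this list of 11 genes, lay below the filter and were not tested. Chac1 measured 0.62, 0.51 and 0.40 FPKM in IVCC and 0.21, 0.20 and 0.12 FPKM in Sham, with every IVCC value above every Sham value. Its mean of 0.34 FPKM is low, and it was named outside the rule used for these lists (the 2 most abundant genes and those with an unadjusted p under 0.05). 

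Of the mercapturate pathway 7 of 8 genes had a lower fitted value, against 51.6% of all genes. The number was 4 of 8 with TPM scaling and after quantile normalization and 5 of 8 without Sham replicate 3. The aminoacylase genes Acy3 and Acy1 averaged 2864 ± 771 against 3384 ± 698 FPKM and 94.4 ± 23.9 against 130.3 ± 21.7 FPKM, and Ggt1, the gamma-glutamyltransferase of the brush border, 855 ± 126 against 1019 ± 184 FPKM. Dpep1, a dipeptidase, averaged 118 ± 1.53 against 99.7 ± 14.8 FPKM, with all 3 IVCC values above all 3 Sham values, and the leucine aminopeptidase gene Lap3 averaged 303 ± 7.90 against 363 ± 26.3 FPKM, with all IVCC values below. Both were named after their values were seen, because their groups did not overlap.

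Of the genes around UDP-glucuronic acid, 6 of 7 had a lower fitted value (median log2 fold change -0.16), against 51.6% of all genes. The number was 2 of 7 with TPM scaling, 4 after quantile normalization or the length and GC correction, and 3 without Sham replicate 3. Ugdh, which oxidises UDP-glucose to UDP-glucuronic acid, measured 49.7, 50.5 and 56.5 FPKM in IVCC and 54.8, 70.0 and 77.9 FPKM in Sham. Sham replicate 1 lay below IVCC replicate 3 in Ugdh, so its groups overlapped. The nucleotide sugar transporter gene Slc35d2, whose groups did not overlap, averaged 10.3 ± 0.686 against 12.8 ± 1.47 FPKM. Miox and Akr1a1, which handle free glucuronate and its precursors, averaged 4164 ± 922 against 4685 ± 1207 FPKM and 2538 ± 287 against 2806 ± 546 FPKM. Sulfate and PAPS genes were split, 6 higher and 5 lower, and 9 and 2 with TPM scaling or quantile normalization. Slc26a1, a sulfate transporter of the basolateral membrane, measured 59.2, 62.8 and 50.1 FPKM in IVCC and 42.8, 48.9 and 39.9 FPKM in Sham, all 3 IVCC values above all 3 Sham values (log2 fold change 0.38, standard error 0.13). The luminal sulfate transporter gene Slc13a1 averaged 206 ± 18.6 against 203 ± 24.5 FPKM, and the PAP phosphatase gene Bpnt1 180.4 ± 15.7 against 170.5 ± 12.6 FPKM.

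Of the exporters of conjugates, 4 of 5 had a higher fitted value, but 1 of 5 after the length and GC correction and 2 of 5 without Sham replicate 3. Of the regulators 7 of 10 had a higher one, and 5 of 10 after that correction. Over all genes, 51.6% had a lower fitted value. Abcc4 averaged 7.69 ± 1.11 against 5.78 ± 0.694 FPKM with overlapping groups, Abcg2 287 ± 8.12 against 295 ± 2.69 FPKM and Abcc2 54.8 ± 10.3 against 51.6 ± 7.29 FPKM. Nfe2l2, which encodes the NRF2 factor that binds antioxidant response elements, averaged 51.7 ± 4.12 against 51.0 ± 6.27 FPKM, and the hepatocyte and proximal tubule factor gene Hnf4a 231 ± 27.4 against 229 ± 9.05 FPKM. Neither regulator differed beyond the spread of its libraries, and the receptor gene Nr1i3 was listed at 0 throughout.

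Markers of other cell types were read in the same fit, and limma called 0 of them at an adjusted p under 0.05 (smallest 0.905, Lyz2). Fitted values were lower in IVCC for 51.6% of all genes tested, and with TPM scaling the median log2 fold change of all genes was 0.15. Markers of the early proximal tubule (segments S1 and S2) had 6 of 7 higher fitted values, with sums of 3541 to 3660 FPKM in IVCC and 3101 to 3342 FPKM in Sham. Slc34a1 alone, at 2131 to 2576 FPKM, made up most of these sums. It was also the only 1 of the 7 whose groups did not overlap, and Slc22a6 had a lower fitted value (log2 fold change -0.08). Markers of the late segment S3 had 5 of 6 lower, and their sums of 741 to 979.6 FPKM in IVCC and 974 to 1359 FPKM in Sham overlapped. Singly, 4 of these 6 did not overlap between the groups, against 8.31% of all genes. Slc22a7, Cyp7b1 and Slc6a18 were lower in IVCC, with log2 fold changes of -0.88, -1.11 and -0.29 (limma adjusted p = 0.924 for each). Slc5a1 was higher, at 0.04. Liver markers had 5 of 5 tested lower (4 of 5 without Sham replicate 3 or with TPM scaling), with a median log2 fold change of -0.41 and overlapping sums. Higher fitted values were found for 3 of 3 podocyte markers, whose sums were 42.2 to 78.8 FPKM against 36.3 to 37.6 FPKM, and for 4 of 4 endothelial markers, whose sums were 115 to 124 FPKM against 99.8 to 113 FPKM. They were also found for 3 of 4 fibroblast markers (4 of 4 with TPM scaling), with overlapping sums of 32.6 to 39.1 FPKM and 29.9 to 32.9 FPKM, and for 3 of 4 macrophage markers, with overlapping sums of 53.0 to 64.3 FPKM and 48.8 to 53.8 FPKM. Most of the fibroblast sum was Dcn, whose log2 fold change was -0.14. Col1a1, Col1a2 and Col3a1 had every IVCC value above every Sham value, with log2 fold changes of 0.54, 0.51 and 0.47 (limma adjusted p = 0.924 for each). Groups did not overlap for 1 of 3 podocyte, 1 of 4 endothelial, 3 of 4 fibroblast and 2 of 4 macrophage markers, against 8.31% of all genes. The macrophage gene Lyz2 measured 19.7, 27.1 and 21.4 FPKM in IVCC and 13.2, 13.6 and 12.97 FPKM in Sham, the smallest unadjusted p among the markers. Csf1r, the defining macrophage marker, went the other way, at 12.0 ± 1.89 against 15.7 ± 1.96 FPKM (log2 fold change -0.37, overlapping groups). Cd68 and C1qa had log2 fold changes of 0.30 and 0.08. At an unadjusted limma p under 0.05, higher values in IVCC were found for 3 of 3 podocyte, 1 of 4 endothelial, 3 of 4 fibroblast and 1 of 4 macrophage markers. Over all genes that share was 1.7%. Csf1r was lower at that threshold. Markers of the thick limb, distal convoluted tubule and collecting duct had 2 of 4, 2 of 3 and 2 of 5 higher, with overlapping sums. The part of these cell types in the values of the conjugation enzymes and their pathways was not tested.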

How the data were processed

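Kidney RNA from 6 libraries, 3 IVCC and 3 Sham, was extracted, made into stranded mRNA libraries and read as single ends of 75 bp, per the labels' protocols. The authors deposited FPKM per gene symbol in 1 table; the sources used here do not state read totals, annotation or scaling. The submitters' processing notes list mm10, Bowtie2 2.2.3, Cufflinks 2.2.1, SAMtools 0.1.19 and TopHat2 2.0.13, without roles.

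The 12090 of 24346 genes averaging 1 FPKM or more were compared on log2(FPKM + 1), a scale that understates the change of low genes, with limma 3.58.1 in R 4.3.3 (two-sided, variance trend, Benjamini-Hochberg over all genes tested, threshold 0.05, no replicate block). The fit was tested on simulated data. Shared 75-base windows, lengths and GC content came from GENCODE M21 transcripts (96.3% of tested genes matched), and promoters from RefSeq. The length and GC correction subtracted, per library, a spline fit of gene deviations on both. Other settings were pseudocounts, filters, scalings, eBayes options, the replicate block, summed Ugt1 rows and each library left out; leaving out both libraries numbered 3 was added after seeing the data.

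Members and lists were chosen with earlier results of these data known. Values in every library are given for the 3 most abundant tested members of each family and for any with an unadjusted p under 0.05 or no overlap. Of each pathway list, the 2 most abundant genes and those with such a p are named.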

Additional observations from a re-analysis of the deposited data

How the results depend on the processing

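In no setting run was a member called at an adjusted p under 0.05. The median log2 fold change of the members, -0.11, stayed within 1 SD between replicates (0.197) in every setting but not on 1 side of 0. With TPM scaling it was 0.06, against 0.15 over all genes. It was 0.002 after quantile normalization, 0.01 after the length and GC correction, and -0.21 to 0.03 when 1 library was left out. Of 775 values of single members and families under the alternatives, 759 moved by less than their SD and 16 by more, all of the 16 being Gstt3, Sult1c2, Sult1d1, Ugt2b38 or Ugt3 values. Over all genes limma called 0; it called 0 to 4 when 1 library was left out (4 without IVCC replicate 3), 4 without both libraries numbered 3, and 1 with the replicate block together with the length and GC correction, all of them microRNA or small nucleolar RNA genes.

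The number of genes with an unadjusted p under 0.05 was 431 (3.56%), with 0 of 35 members among them. Leaving out IVCC replicate 1 gave 216 genes (1.79%) and 0 members, and leaving out IVCC replicate 2 gave 220 (1.82%) and 0. Leaving out IVCC replicate 3 gave 1030 (8.52%) and 3 of 35 members. Leaving out Sham replicate 1 gave 371 (3.07%) and 1, Gstm1. Leaving out Sham replicate 2 gave 565 (4.67%) and 0, and leaving out Sham replicate 3 gave 365 (3.02%) and 1, Gstp2. The counts were 1052 (8.7%) and 4 without both libraries numbered 3, and 665 (5.5%) and 1 with the length and GC correction. With that correction and the replicate block they were 1681 (13.9%) and 6. A filter at a mean of 5 FPKM gave 282 of 8570 genes (3.29%) and 0 of 27 members, and no filter 780 of 17572 genes (4.44%) and 0 of 52 members. The 3 members without IVCC replicate 3 were Ugt1a7c, Gstm1 and Ugt1a6b.

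Whether the numbers pair the samples cannot be decided from these values, because the 3 deviations of a group sum to 0 in each gene. Deviations of same-numbered libraries correlated at -0.11, 0.34 and 0.32 for numbers 1 to 3. Crossing numbers 2 and 3 gave -0.37 and -0.36. IVCC replicate 1 correlated better with Sham replicates 2 (0.07) and 3 (0.02) than with its own number. With the replicate number as a block, limma called 0 genes. The count at an unadjusted p under 0.05 went from 431 to 2388 (19.8% of genes). Among these were 11 of 35 members (31.4%), 9 lower and 2 higher in IVCC. The smallest limma adjusted p of a member was then 0.101. Depth is unknown, so no limit can be set for members listed at 0.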
